A study of Mus musculus with 10 samples.

Results

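The cytosolic ribosomal protein genes are described here in mouse colon. They were chosen by symbol: Rpl or Rps followed by a number, with an optional further letter (a, x or l) or number, and Rplp0, Rplp1, Rplp2 and Rpsa, limited to protein-coding genes with a RefSeq transcript. Kinases of the Rps6k family and pseudogenes were left out. The rule found 85 genes among 23488, of which 53 encode proteins of the large subunit (Rpl) and 32 of the small subunit (Rps). They were read from 99 transcripts, and 10 genes had several transcripts. The symbol rule does not take in Fau, which encodes a ribosomal protein fused to a ubiquitin-like protein, so it stands among the related genes below.

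All mice were C57BL/6. In the Control group, saline was given to mice fed the diet AIN-93M. In the Model group, mice were given azoxymethane (AOM), a colon carcinogen, at 10 mg/kg by injection at an age of 6 weeks, then dextran sulfate sodium (DSS), a polymer that injures the colon lining, at 1.2% in the drinking water for 7 days, with the same diet. The other AOM/DSS groups ate aspirin at 0.02% (ASA), curcumin at 2% (CUR), or aspirin at 0.01% with curcumin at 1% (ASA+CUR). Each group had 2 libraries, replicates 0 and 1, and the labels do not say whether these came from separate mice, so p-values measure the spread between libraries, which may be technical. The Control tissue is labelled as colon and that of the other groups as tumour, while the protocol describes colon frozen after palpable tumours had been removed. The labels give no age at sampling.

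The ribosome has a small subunit, which decodes mRNA, and a large subunit, which joins amino acids. Each ribosomal protein is needed in about the same amount, and most of their mRNAs begin with a pyrimidine tract at the 5′ end (a TOP motif) through which growth signals from mTORC1 control their translation. Dividing cells of the intestinal crypt make many ribosomes, and free ribosomal proteins such as Rpl5 and Rpl11 can bind Mdm2 and so stabilise p53.

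Values are FPKM, that is fragments counted relative to transcript length and to the mapped fragments of the library, summed over the transcripts of a gene. Their sum over all genes was lowest in ASA+CUR replicate 1, at 515959, and highest in Control replicate 0, at 720895, so the scale differs between libraries, and the number of reads is unknown. Epithelial markers, 10 in all, were above 0 in the data and summed to 5360 to 12684 FPKM. Smooth muscle markers summed to 5705 and 9373 FPKM in the Control libraries and to 299.6 to 917 in the AOM/DSS libraries, and all 10 were lower in both comparisons with Control. The library CUR replicate 0 stood apart from CUR replicate 1: markers of absorptive colonocytes, 10 in all, summed to 4758 FPKM against 1135, and epithelial markers to 12684 against 7164. In bulk tissue, fewer cells of a type and less RNA per cell cannot be told apart.

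The start sites of 65 of the 85 genes were found in a RefSeq promoter table (GRCm38.p6). A C that opens a run of at least 8 pyrimidines, read on the transcribed strand from 20 bases before to 50 bases after the start, stood in 50 of the 65 (76.9%), against 23.3% of the 10681 other tested coding genes and 20.0% of all 32851 promoter entries. The sequences of 8 genes are shown since they let a reader see that run, from 30 bases before the start with the first 20 transcribed bases. Capitals mark runs of at least 6 C or T. Rps18 and Rplp2 are among the higher genes of the set, Rpl28, Rpl22l1 and Rps28 are among those that were lower in AOM/DSS tissue once a library was left out (below), and Rps28 shows a start without such a run.
Rps18: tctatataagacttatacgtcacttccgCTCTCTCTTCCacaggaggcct
Rplp2: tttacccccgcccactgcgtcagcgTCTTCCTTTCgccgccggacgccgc
Rps6: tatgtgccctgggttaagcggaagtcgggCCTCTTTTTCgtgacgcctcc
Rpl35: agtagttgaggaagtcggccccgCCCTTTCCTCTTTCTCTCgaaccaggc
Rpl28: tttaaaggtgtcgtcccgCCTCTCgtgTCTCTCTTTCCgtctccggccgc
Rps10: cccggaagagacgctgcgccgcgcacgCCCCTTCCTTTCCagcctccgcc
Rpl22l1: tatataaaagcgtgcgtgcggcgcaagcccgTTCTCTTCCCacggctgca
Rps28: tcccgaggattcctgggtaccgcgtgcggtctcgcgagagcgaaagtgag
In the first 6 of these, the run spans the annotated start, and in Rpl22l1 it begins just after it. Their positions were Rps18 chr17:33955646-33955695 (minus strand), Rplp2 chr7:141447621-141447670 (plus strand), Rps6 chr4:86857348-86857397 (minus strand), Rpl35 chr2:39005112-39005161 (minus strand), Rpl28 chr7:4792935-4792984 (plus strand), Rps10 chr17:27635225-27635274 (minus strand), Rpl22l1 chr3:28805478-28805527 (plus strand) and Rps28 chr17:33824543-33824592 (minus strand). Within the 300 bases from 250 before to 50 after the start, on either strand, CCGGAAG (the core bound by GABP and other Ets factors) was found in 26 of the 65 genes, against 18.6% of the other tested genes and 8.86% of all entries. AAGATGG, the core bound by YY1, was found in 15.4%, against 8.03% and 6.34%. The E-box CACGTG, which Myc and Max can bind, was found in 9.23%, against 11.5% and 7.15%. A match of letters is a description and not a site.

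Most ribosomal protein genes were among the most abundant mRNAs of the colon. Of the 85, 4 had a mean above 2000 FPKM over the 10 libraries, 45 lay from 1000 to 2000, 20 from 500 to 1000, 6 from 100 to 500, 6 from 1 to 100 and 4 under 1. The 85 genes together held 14.1% to 18.3% of all FPKM. Large subunit genes made up 55.7% to 56.9% of that sum in every library.

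The 5 highest were Rplp1 and Rpl41, with means of 3134 and 3109 FPKM, then Rps12, Rps18 and Rpl32. Rplp1, an acidic protein of the stalk that recruits elongation factors, stood at 3602 and 3299 FPKM for Control, 3154 and 3273 for Model, 2479 and 2591 for ASA, 5367 and 2855 for CUR and 2349 and 2373 for ASA+CUR. Rpl41, the shortest ribosomal protein, stood at 4088 and 3017 FPKM for Control, 3258 and 3002 for Model, 2646 and 2292 for ASA, 5416 and 2723 for CUR and 2222 and 2426 for ASA+CUR. For both genes the 2 ASA and 2 ASA+CUR libraries were the lowest of the 10, and CUR replicate 0 was the highest. Rps12 and Rps18, small subunit proteins, had means of 2512 and 2001 FPKM, and Rpl32, a large subunit protein, 1953.

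The 75 genes with a mean above 100 FPKM ran from 138 to 3134 FPKM. The other stalk proteins were in the upper part of this range. Rplp0, which anchors the stalk to the ribosome, stood at 2117 and 2038 FPKM for Control, 2125 and 1866 for Model, 1649 and 1611 for ASA, 2272 and 1912 for CUR and 1665 and 1486 for ASA+CUR. Rplp2, the partner of Rplp1, stood at 1838 and 1708 FPKM for Control, 1627 and 1821 for Model, 1396 and 1389 for ASA, 3024 and 1533 for CUR and 1308 and 1274 for ASA+CUR. Rpsa, a small subunit protein also known as a laminin receptor, stood at 879 and 834 FPKM for Control, 929.6 and 939 for Model, 743 and 765 for ASA, 1371 and 849 for CUR and 718 and 706 for ASA+CUR. In all 3 genes the 4 ASA and ASA+CUR libraries lay below both Model libraries. Rps6, the small subunit protein that S6 kinase phosphorylates, had a mean of 867 FPKM, and Rps27a, made as a fusion with ubiquitin, of 1006.

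**Figure D1:**
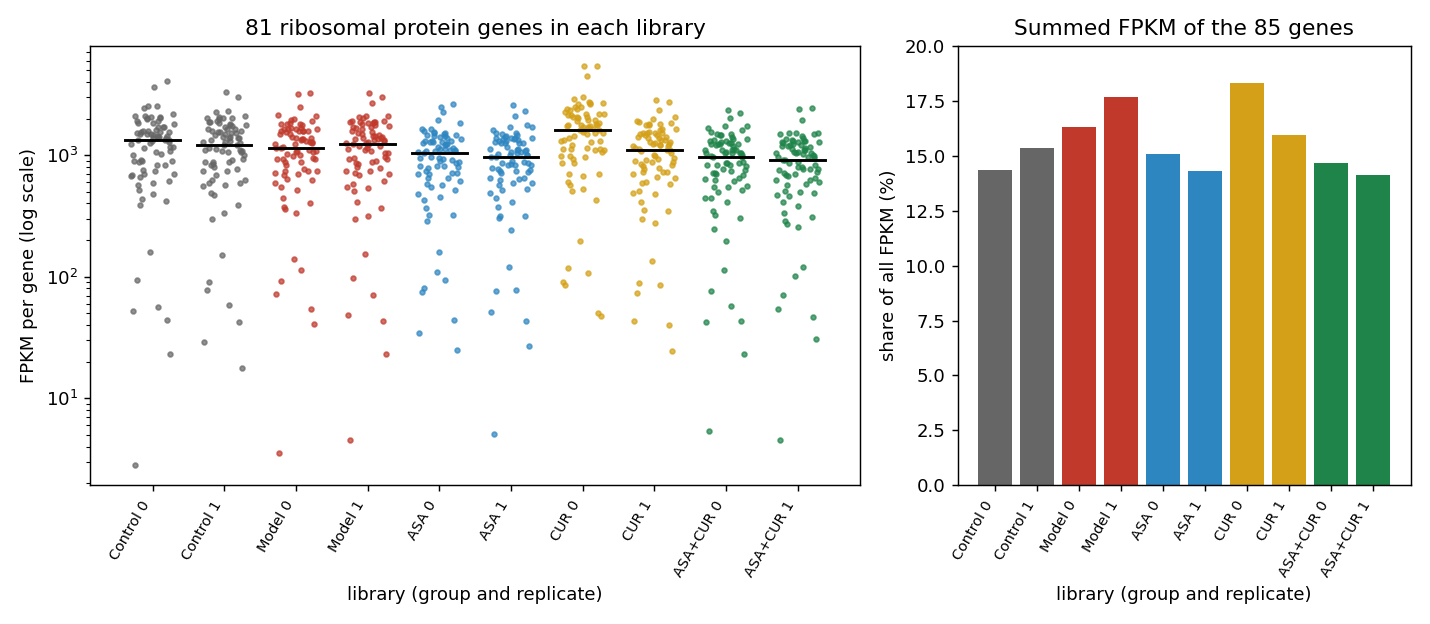
Left, FPKM on a log scale of the 81 ribosomal protein genes that passed the filter on low values, in each of the 10 libraries (1 point a gene, black line the median). Right, the share of all FPKM held by the 85 genes. The medians lie between 919 FPKM in ASA+CUR replicate 1 and 1599.9 in CUR replicate 0, and the shares between 14.1% and 18.3%.

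A few genes were listed far below the rest. Rpl26, Rpl30, Rpl34, Rps15a, Rps27 and Rpl7l1 had means under 100 FPKM. Rps27 stood at 2.81 and 77.8 FPKM for Control, 3.57 and 4.50 for Model, 75.1 and 5.11 for ASA, 85.8 and 73.5 for CUR and 5.38 and 4.53 for ASA+CUR. It was above 70 FPKM in 4 libraries and under 6 in the other 6, which split the Control and the ASA replicates, so its values do not follow the groups. Only its coding transcript changed with it, at 66.7 to 79.4 FPKM in the 4 high libraries and 0.11 to 0.12 in the others. The other transcript stayed at 2.46 to 6.81 FPKM in all 10 libraries. The coding transcript thus held 90.7% to 96.8% of Rps27 in the 4 high libraries and 2.28% to 4.09% in the others. A near-identical copy, Rps27rt, which the rule leaves out, was listed at 3526 and 3055 FPKM for Control, 2323 and 2757 for Model, 1924 and 1898 for ASA, 3272 and 2332 for CUR and 1887 and 1553 for ASA+CUR. Likewise Rpl34 had a mean of 28.3 FPKM while its copy Rpl34-ps1 was listed at 1871 and 1584 FPKM for Control, 1692 and 1854 for Model, 1473 and 1433 for ASA, 2560.3 and 1653 for CUR and 1376 and 1263 for ASA+CUR. No source used here gives how reads of such pairs were divided between the copies, so the levels of Rps27 and Rpl34 are uncertain. Whether copies also account for the low Rpl26, Rpl30 and Rps15a was not tested.

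Of the genes with a close paralog, 4 were at or near 0: Rpl10l was listed at 0 in all libraries, and Rpl3l, Rpl32l and Rpl39l did not reach 1 FPKM. Rpl3l is known from muscle and Rpl10l and Rpl39l from testis. These 4 did not pass the filter of at least 1 FPKM in at least 2 libraries, which left 81 ribosomal protein genes among 14061 tested. Their partners were abundant: Rpl10, at the peptidyl transferase centre, had a mean of 1619.7 FPKM, Rpl3 of 1055 and Rpl39, at the exit tunnel, of 1734.

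Rpl22l1, the paralog of Rpl22, varied most among the expressed paralogs. It stood at 481 and 332 FPKM for Control, 332 and 313 for Model, 159 and 241 for ASA, 526 and 279 for CUR and 196 and 258 for ASA+CUR. Rpl22, an RNA-binding large subunit protein needed by developing T cells, stood at 159 and 151 FPKM for Control, 140.3 and 152 for Model, 110.1 and 119 for ASA, 197 and 134 for CUR and 114 and 102 for ASA+CUR. The ratio of Rpl22l1 to Rpl22 was 2.62 ± 0.59 (SD, n = 2) for Control, 2.21 ± 0.222 for Model, 1.73 ± 0.406 for ASA, 2.38 ± 0.415 for CUR and 2.13 ± 0.572 for ASA+CUR. The 2 ASA ratios lay below those of Control, Model and CUR, and the other groups overlapped. The ratio was not tested. Rpl36al ran at 0.654 to 0.833 of Rpl36a, and Rpl7l1 at 0.0215 to 0.0311 of Rpl7. Rps27l, known as a target of p53, stood at 386 and 298 FPKM for Control, 372 and 298 for Model, 289 and 306 for ASA, 565 and 299 for CUR and 246 and 285 for ASA+CUR. Its groups overlapped, apart from ASA+CUR, whose libraries lay below the other 8.

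Among the 10 genes with several transcripts, the main transcript of Rpl19, Rpl31 and Rps27a held 94.9% to 99.9% of the level. Rps24, which is spliced differently in different tissues, had NM_207634 at 85.5% to 96.4%. Its minor transcript NM_207635 held 5.77% and 4.91% for Control, 1.58% and 4.66% for Model, 1.40% and 2.51% for ASA, 2.34% and 1.87% for CUR and 1.72% and 1.20% for ASA+CUR. Both Control libraries lay above all 8 AOM/DSS libraries, 1 Model library by little. This difference was not tested, and the split of reads over transcripts is an estimate of the authors' program. The level was divided in Rpl38, with its 3 transcripts at 43.9% to 59.3%, 29.7% to 43.7% and 9.11% to 14.2%, and in Rpl30, with 36.8% to 59.3% and 40.7% to 63.2%. In Rps27 only the coding transcript changed between libraries, as given above.

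None of the 81 ribosomal protein genes passed an adjusted p of 0.05 (limma, Benjamini-Hochberg over all 14061 genes) between Model and Control, where 6.84% of all genes were higher in Model and 9.34% lower. At an unadjusted p of 0.05 the count was also 0, where 14.9% of all genes were higher and 16.9% lower. The median difference of Model minus Control was -0.04 (log2 of FPKM + 1) for the 81 and 0.02 for all genes, or 0.22 and 0.25 once every library was scaled to the same sum, with a median standard error of 0.23. The libraries did not overlap for 24 genes that were lower in Model (29.6%, against 32.2% of all genes) and 11 that were higher (13.6%, against 32.7%). The smallest adjusted p was that of Rpl26, 0.64 (SE 0.35, adjusted p = 0.262).

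Set against Control with all 8 AOM/DSS libraries together, again none of the 81 passed, while 14.6% of all genes were higher and 16.9% lower. At an unadjusted p of 0.05, 3 genes were lower (3.70%, against 22.6%) and 0 higher. The median difference was -0.18 for the 81 genes and 0.02 for all genes, or 0.09 and 0.27 scaled to the same sum, and as deposited 68 of the 81 (against 48.1% of all genes) lay below 0. The libraries of 0 genes failed to overlap in either direction, where 20.1% of all genes were higher and 20.3% lower without overlap. The smallest adjusted p belonged to Rps7 and Rpl9. In this comparison markers of smooth muscle (10 of 10), goblet cells (7 of 7), colonocytes (7 of 9) and enteric neurons and glia (9 of 10) were lower. Those of crypts (8 of 9), Paneth cells (7 of 8), neutrophils (6 of 7) and fibroblasts (7 of 8) were higher, and 1 fibroblast marker was lower. Paneth cell markers summed to 6407 and 651 FPKM in the Control libraries and to 1790 to 7742 in the AOM/DSS libraries, so these sums overlapped. The part of these cells in the values was not tested.

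Rps7, a small subunit protein that binds Mdm2 when free, stood at 1172 and 1076 FPKM for Control, 952 and 958 for Model, 713 and 722 for ASA, 1128 and 835 for CUR and 690.1 and 642 for ASA+CUR. Both Control libraries exceeded every AOM/DSS library except CUR replicate 0, and the difference was -0.46 (SE 0.16, adjusted p = 0.0575). Rpl9, of the large subunit, stood at 1701 and 1632 FPKM for Control, 1308 and 1369 for Model, 1095 and 1066 for ASA, 1643 and 1341 for CUR and 1104 and 973 for ASA+CUR. Again only CUR replicate 0 reached the Control libraries, and the difference was -0.45 (SE 0.16, adjusted p = 0.0637).

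Rps14, a small subunit protein lost in the human 5q- syndrome, differed by -0.40 (SE 0.2, adjusted p = 0.162). Rpl22l1 differed by -0.56 (SE 0.27, adjusted p = 0.156). Rps24 differed by -0.32 (SE 0.23, adjusted p = 0.304). Rps28, at the mRNA exit of the small subunit, differed by -0.38 (SE 0.21, adjusted p = 0.192). None of these passed the threshold.

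On the other side stood Rpl26, Rpl34, Rpl30, Rpl7 and Rps2. Rps2, at the mRNA entry channel, stood at 1426 and 1376 FPKM for Control, 1812 and 1561 for Model, 1484 and 1386 for ASA, 2064 and 1390.1 for CUR and 1247 and 1429 for ASA+CUR. Rpl7, which contacts 5S rRNA, stood at 1549 and 1581 FPKM for Control, 1906 and 1913 for Model, 1453 and 1761 for ASA, 2175 and 1850.2 for CUR and 1624 and 1494 for ASA+CUR. For both, the 2 Model libraries exceeded the Control libraries, and the ASA+CUR libraries lay on both sides of Control. Rpl26, a large subunit protein also known to bind p53 mRNA, stood at 56.2 and 58.4 FPKM for Control, 114 and 70.2 for Model, 94.4 and 78.0 for ASA, 108 and 84.7 for CUR and 57.6 and 120.5 for ASA+CUR. One ASA+CUR library lay between the Control libraries and the other was the highest of all 10, so its replicates spread widely.

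With the median of the 81 genes made equal in every library, so that each gene was compared with the rest of the set, none passed the threshold in any of the 7 comparisons. On that scale 5.35% of all genes were higher and 5.75% lower in Model, and 17.2% and 10.7% in all AOM/DSS tissue. In each of the other comparisons at most 2 of the 14061 genes (0.0142%) passed in a given direction, so the 0 there says little. For all AOM/DSS against Control the genes furthest above the others were Rpl26 at 0.81 (SE 0.29, adjusted p = 0.0663), Rpl34 at 0.69 (SE 0.25, adjusted p = 0.0692), Rpl30 at 0.61, Rpl7 at 0.36 (SE 0.13, adjusted p = 0.0740) and Rps2 at 0.32 (SE 0.13, adjusted p = 0.0873). Among those furthest below were Rpl22l1 at -0.36, Rps7 at -0.26 (SE 0.10, adjusted p = 0.0848), Rpl9 at -0.25 and Rps14 at -0.21. Rpl5 and Rpl11, the partners of 5S rRNA, stood at -0.04 (SE 0.12) and -0.0009 (SE 0.11).

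**Figure D2:**
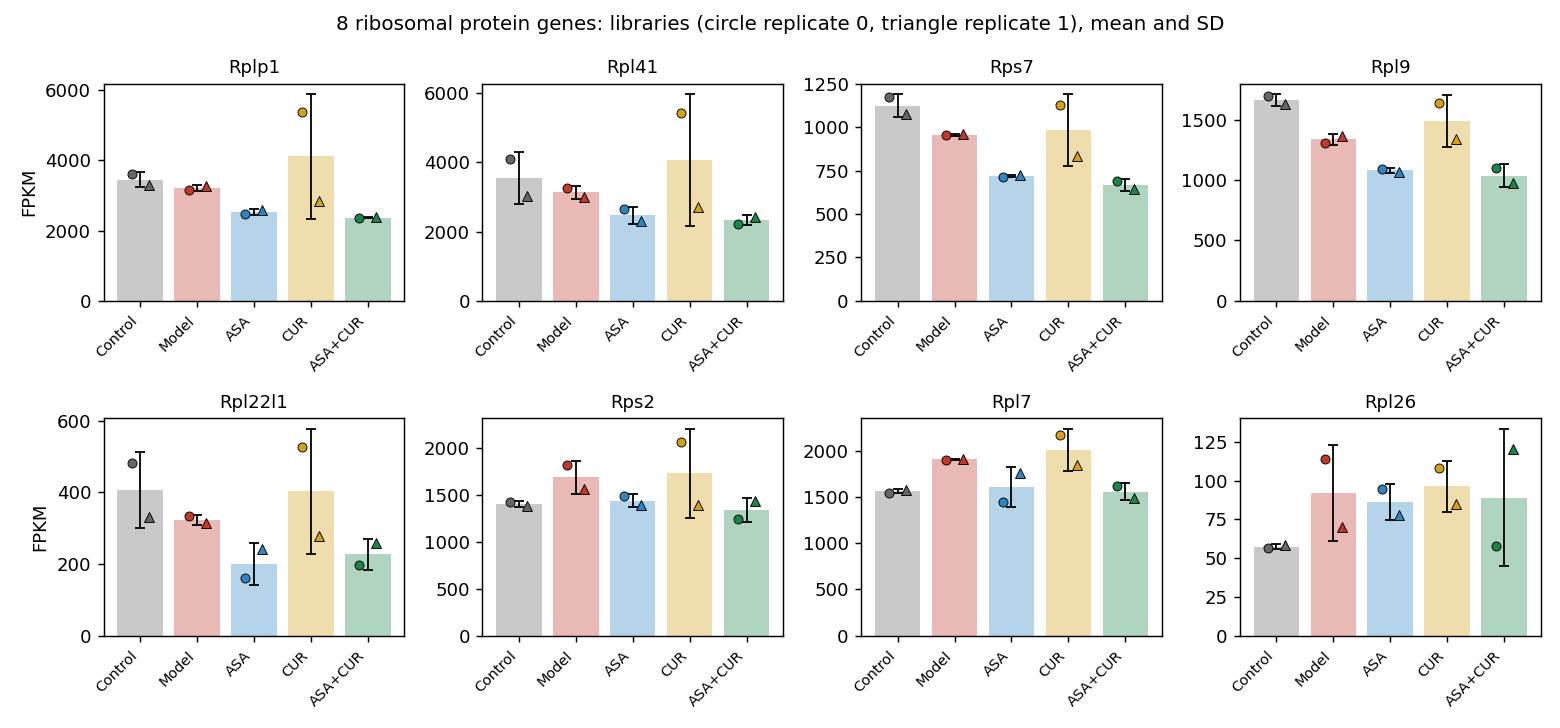
FPKM of 8 ribosomal protein genes in each group (bars the mean, lines the SD over 2 libraries, circles replicate 0, triangles replicate 1). Rps7 and Rpl9 are highest in Control among all libraries except CUR replicate 0, Rps2 and Rpl7 are higher in Model than in Control, and Rplp1 and Rpl41 peak in CUR replicate 0.

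The scale of the libraries changed the sign of the median. FPKM rescaled to the same sum in every library (TPM) moved the median of all genes by 0.23 for Model against Control, by 0.25 for all AOM/DSS against Control and for ASA+CUR against CUR, by 0.12 for ASA+CUR against Model and by -0.14 for CUR against Model. As a result the medians of the 81 genes turned from -0.04 to 0.22 and from -0.18 to 0.09. Relative to the median of all genes, the 81 genes stood at -0.06 as deposited and -0.03 as TPM for Model, and at -0.21 and -0.18 for all AOM/DSS, so on that measure both scales placed them below. As TPM, 5 genes were higher in all AOM/DSS tissue (6.17%, against 24.4% of all genes), namely Rpl26, Rpl34, Rpl7, Rpl7l1 and Rps2, by 0.33 to 0.89. None was lower, against 10.4%. In Model alone none passed as TPM, against 11% of all genes higher and 5.21% lower. Without overlap, 57 of the 81 (against 49.7% of all genes) were higher in Model and 0 of the 81 (against 19.2% of all genes) lower. For all AOM/DSS tissue these counts were 14 of the 81 (against 27.2% of all genes) and 0 of the 81 (against 12.6% of all genes). Rps7 then stood at -0.19 and Rpl9 at -0.17, without passing the threshold.

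The count of genes called lower in AOM/DSS tissue depended on a single library. Without CUR replicate 0, left out in turn as every other library was, 28 of the 81 were lower (34.6%, against 20.6% of all genes) and 0 higher (against 18.1%). They were 18 of 49 large and 10 of 32 small subunit genes. Rps7 then differed by -0.52 (SE 0.088, adjusted p = 0.00552), Rpl9 by -0.48 (SE 0.095, adjusted p = 0.00899) and Rps28 by -0.46 (SE 0.094, adjusted p = 0.00988). Among them were also Rplp1, by -0.34 (SE 0.097, adjusted p = 0.0332), Rpl5, by -0.27 (SE 0.085, adjusted p = 0.0432), and Rpl22l1, by -0.67 (SE 0.21, adjusted p = 0.0465). The 7 remaining AOM/DSS libraries lay below both Control libraries for 24 of the 81 genes (29.6%), against 25% of all genes. Without CUR replicate 1 the count was 4 (4.94%, against 19.8%), and 0 were higher (against 17.3%).

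The 2 CUR libraries differed by a median of 0.53 (log2) over the 81 genes. CUR replicate 0 was higher for 80 of them, with Rpl3 the exception at -0.0075, and the difference reached 1.10 for Rpl38. Of the 13980 other tested genes, 6985 were higher in CUR replicate 0. It was the highest of all 10 libraries for 75 of the 81. In the same library the sums of colonocyte and epithelial markers were higher than in CUR replicate 1, as given above, and their part in this was not tested.

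The difference between the CUR libraries was larger for short genes. Its median was 0.79 for the 28 genes with a coding length under 400 nt, 0.51 for the 30 from 400 to 600 nt and 0.31 for the 23 of 600 nt or more. Other genes of the same lengths showed the same order at lower values, with 0.41, 0.32 and -0.04. Over the 81 genes, Pearson's r with log2 coding length was -0.65, a description over genes of the same 2 libraries. The ratio of CUR replicate 0 to CUR replicate 1 was 1.99 for Rpl41, the shortest, and 2.14 for Rpl38, but 1.35 for Rpl39, which is shorter than Rpl38. It was 1.09 for Rpl4, the longest, and 0.995 for Rpl3. Why the difference varied with length was not tested. With a linear trend on coding length removed in each library, an alternative chosen after seeing the data, 3 of the 81 genes (3.70%) were lower in all AOM/DSS tissue, a smaller share than the 17.8% of all genes, among them Rps7 at -0.40 (adjusted p = 0.0205) and Rpl9 at -0.39 (adjusted p = 0.0255).

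**Figure D3:**
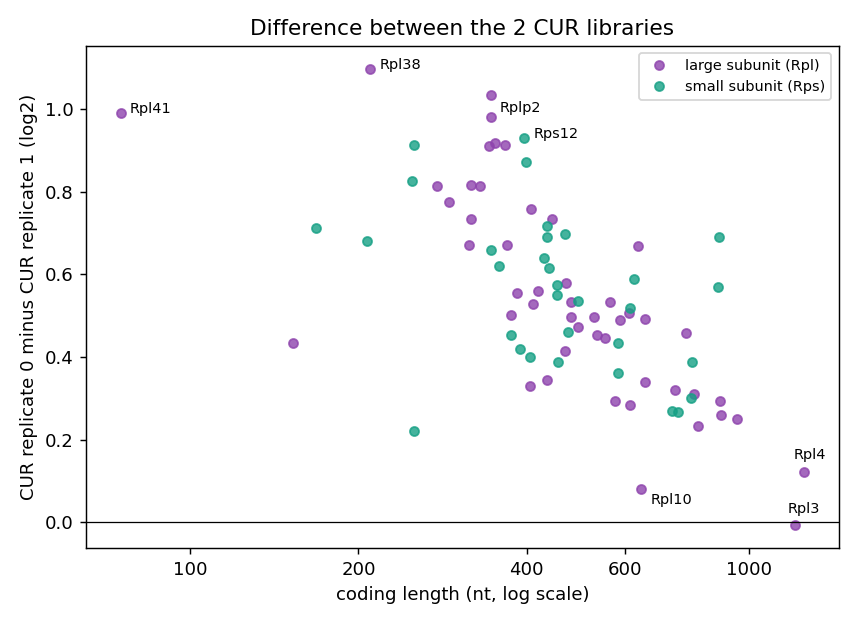
Difference between the 2 CUR libraries (log2 of FPKM + 1) against coding length on a log axis for the 81 genes, large subunit genes in purple and small subunit genes in green. The median is 0.79 for the 28 genes under 400 nt and 0.31 for the 23 of 600 nt or more, and Rpl38 is highest at 1.10.

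Within AOM/DSS tissue, ribosomal protein genes were listed lower in both groups that ate aspirin, and no gene passed the threshold, which 0.00711% of all genes passed in each direction in ASA and in ASA+CUR. In ASA against Model the median difference was -0.28 for the 81 genes and -0.01 for all genes. Both ASA libraries lay below both Model libraries for 75 of the 81 (92.6%, against 14.2% of all genes). In ASA+CUR against Model the median was -0.36 against -0.02, and 76 of the 81 did not overlap and were lower (93.8%, against 25.4%). Below 0 were 80 of the 81 (against 52.3% of all genes) in ASA and 80 of the 81 (against 52% of all genes) in ASA+CUR. Rps27 was the 1 gene above 0, and in ASA 1 of the 81 (against 12.8% of all genes) and in ASA+CUR 1 of the 81 (against 24.8% of all genes) were higher without overlap. These comparisons share the Model libraries, and the genes of a library share its depth and scale, so the 75 and 76 are not so many separate observations.

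Rpl5 had the smallest p in ASA against Model, with 573 and 588 FPKM for Control, 542 and 583 for Model, 431 and 446 for ASA, 606 and 506 for CUR and 442 and 412 for ASA+CUR. Its difference was -0.36 (SE 0.16, adjusted p = 0.9997) in ASA and -0.40 (SE 0.16, adjusted p = 0.486) in ASA+CUR. Rps7 differed by -0.41 (SE 0.2, adjusted p = 0.9997) and -0.52 (SE 0.2, adjusted p = 0.473). Rpl17, of the large subunit, differed by -0.49 (SE 0.21, adjusted p = 0.496) in ASA+CUR. At an unadjusted p of 0.05, 0 of the 81 genes were lower in ASA against Model (against 1.44% of all genes) and 3 in ASA+CUR against Model (3.70%, against 5.48% of all genes), and 0 were higher in either, against 0.946% and 4.59% of all genes.

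As TPM the medians were -0.20 for ASA and -0.23 for ASA+CUR, with 66 and 71 of the 81 genes still lower without overlap, against 9.42% and 16.6% of all genes. Higher without overlap were 1 of the 81 (against 20.1% of all genes) and 1 of the 81 (against 36% of all genes). None passed an adjusted p of 0.05 as TPM, against 0.00673% of all genes in each direction. With the length trend removed they were -0.18 and -0.21. In ASA+CUR against Model the median was -0.40 under 400 nt, -0.36 from 400 to 600 nt and -0.31 from 600 nt, while other genes stood at -0.23, -0.16 and 0.01. Colonocyte markers summed to 857 to 1095 FPKM for Model, 348 to 798 for ASA and 322 to 606 for ASA+CUR. Goblet cell markers summed to 3892 to 4326, 2057 to 2309 and 2219 to 2329.6, and smooth muscle markers to 731 to 917, 304 to 355 and 358 to 433. The colonocyte, goblet cell and smooth muscle sums were each lower than in Model without overlap. So were those of B and plasma cells, at 522 and 1344 for Model, 255 and 325 for ASA and 234 and 205 for ASA+CUR. Sums of the 10 epithelial markers overlapped with Model in both groups. Squamous epithelium and crypt markers overlapped in ASA and were higher without overlap in ASA+CUR. The part of these cells in the values was not tested.

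ASA+CUR against ASA gave a median of -0.09, and 0 of the 81 genes passed the threshold, as did 0 of all 14061. As deposited, 41 of the 81 were lower without overlap (50.6%, against 18% of all genes), and as TPM 12 (14.8%, against 13.5%), near the background. Rpl32 and Rpl23 had the smallest p after Rps27, at -0.17 and -0.15 with standard errors of 0.23 and 0.21.

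CUR against Model depended on which CUR library was kept. With both, the median was 0.15 as deposited but -0.01 as TPM. As deposited 75 of the 81 genes lay above 0 (against 47.6% of the other tested genes). Only Rps27, whose listing switches between libraries, was higher without overlap (1.23%, against 12% of all genes), and 0 were lower (against 12.1%). As TPM, 9 of the 81 (11.1%, against 18.2% of all genes) were lower without overlap and 1 (1.23%, against 6.92%) higher. None passed the threshold, against 0.00711% of all genes lower and 0 higher. At an unadjusted p of 0.05, 1 of the 81 (against 2.71% of all genes) was higher and 0 of the 81 (against 2.15% of all genes) lower. Without CUR replicate 1 the median was 0.41, and without CUR replicate 0 it was -0.13. Rps20 and Rps28 had the smallest p after Rps27, at 0.29 (SE 0.25, adjusted p = 0.934) and 0.31 (SE 0.26, adjusted p = 0.934). Rps20, of the small subunit, stood at 1925 and 1780.4 FPKM for Control, 1775 and 1862 for Model, 1507 and 1454 for ASA, 2753 and 1790.2 for CUR and 1409 and 1316 for ASA+CUR. For it, CUR replicate 1 lay between the Model libraries and CUR replicate 0 far above them.

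ASA+CUR against CUR had the lowest median, -0.52 as deposited and -0.23 as TPM, and 0 of the 81 genes passed, as did 0 of all 14061, of which 776 were higher and 1168 lower by limma at an unadjusted p under 0.05. At an unadjusted p of 0.05, 34 were lower (42.0%, against 8.31% of all genes), and 76 did not overlap and were lower (93.8%, against 24.2%). As TPM, 62 of the 81 (against 11.6% of all genes) did not overlap and were lower. Rpl17, Rpl22 and Rpl23 had the smallest p, at -0.67 (SE 0.21, adjusted p = 0.321), -0.59 (SE 0.19, adjusted p = 0.325) and -0.62 (SE 0.21, adjusted p = 0.328). Without CUR replicate 1, the group is the 1 library that was highest for 75 of the 81 genes, and it is assumed to vary like the libraries of the other groups. The count from that fit is given below with the share of all genes. Without CUR replicate 0, which also leaves 1 CUR library, the median was -0.24.

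Centring on the set lowered the spread of most ribosomal protein genes, a fall that centring genes on their own median favours. The standard deviation of a gene over the 10 libraries had a median of 0.27 (log2), and of 0.10 once each library was centred on the median of the 81. It fell for 75 genes and rose for 6, namely Rpl26, Rpl3, Rpl7l1, Rpl10, Rpl4 and Rpl7. For the 830 other tested genes at 100 FPKM or more, which were not centred on their own median, it was 0.35 before any centring. After centring it was highest for Rps27 at 1.96, then Rpl26 at 0.49, Rpl30 at 0.42, Rpl34 at 0.40 and Rpl22l1 at 0.35.

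**Figure D4:**
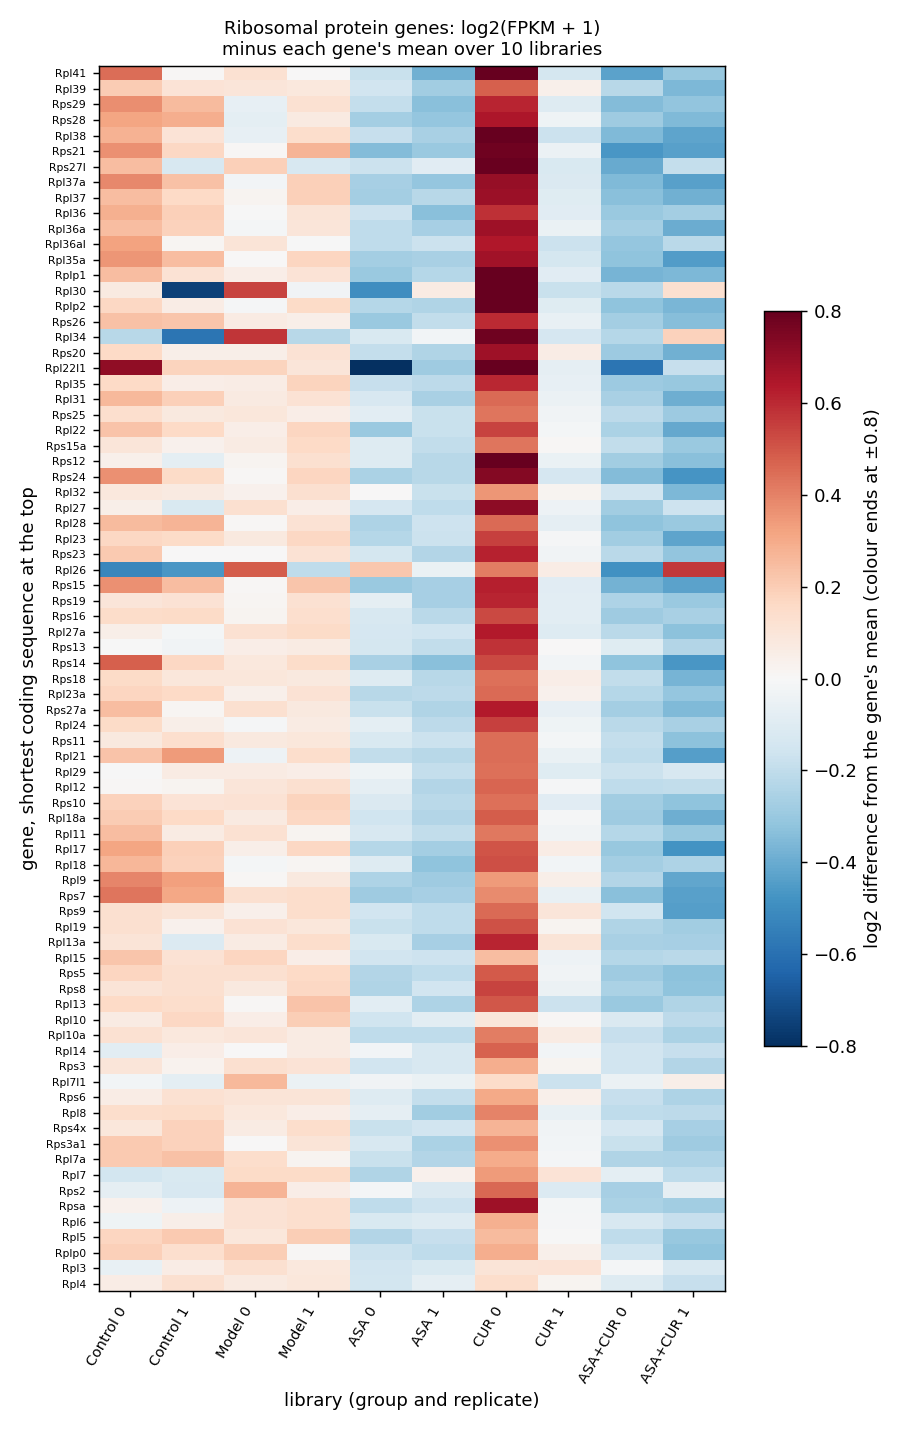
Difference of log2(FPKM + 1) from each gene's mean over the 10 libraries (red higher, blue lower, colour ends at ±0.8), for 79 of the 81 genes, without Rps27 and a gene not reported here, with the shortest coding length at the top. CUR replicate 0 is red for nearly every gene and most so for short ones, and ASA and ASA+CUR libraries are mostly blue.

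Of 46 ribosome biogenesis genes, which process rRNA and assemble the subunits, 29 (63%) were higher and 1 lower in all AOM/DSS tissue, where 14.6% of all genes were higher and 16.9% lower, and their median was 0.57. In Model alone 7 (15.2%) were higher and 0 lower, against 6.84% and 9.34% of all genes. Gtpbp4, which matures the large subunit, rose by 0.73 (SE 0.12, adjusted p = 0.00356) from 17.2 to 29.5 FPKM. Mybbp1a rose by 0.91, Utp15 by 0.68 and Ltv1 by 0.95. The exception was Utp20, which fell by 0.52, a call lost as TPM and with the replicate number as a block. As TPM the counts were 39 (84.8%, against 24.4% of all genes) and 26 (56.5%, against 11%) higher. Without CUR replicate 0 they were 32 (69.6%, against 18.1%) and 16 (34.8%, against 9.22%). With the replicate number as a block they were 28 (60.9%, against 13.9%) and 5 (10.9%, against 6.19%), so the number in Model moved with the setting.

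Of 21 subunits and factors of RNA polymerases I and III, which transcribe rRNA and 5S rRNA, 5 (23.8%, against 14.6% of all genes) were higher and 1 lower in all AOM/DSS tissue. As TPM 8 were higher (38.1%, against 24.4%) and 0 lower (against 10.4%). Without CUR replicate 0, 6 were higher (28.6%, against 18.1%) and 3 lower (14.3%, against 20.6%). Polr1a, the largest subunit of polymerase I, rose by 0.70 and its factor Rrn3 by 0.62, while Gtf3a, needed for 5S rRNA, fell by 0.43, a call lost as TPM and with the replicate number as a block. Of 12 genes of the Myc network, 3 were higher (Myc by 1.42, Mycl by 1.48 and Mnt by 0.57) and 3 lower (Max, Mlxip and Mlx), 25% in each direction against 14.6% and 16.9% of all genes. As TPM 0 of the 12 were lower (against 10.4% of all genes).

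Of 22 other TOP mRNAs and ribosome partners, 4 were higher (18.2%, near the 14.6% of all genes) and 0 lower, with a median of -0.09 (0.18 as TPM). Those were Vim, which encodes the intermediate filament vimentin of mesenchymal cells, at 352 against 118 FPKM (adjusted p = 0.0052), and Nap1l1, Pabpc1 and Hnrnpa1, at 0.97, 0.66 and 0.58. The ribosomal fusion gene Fau stood at -0.45 (SE 0.22, adjusted p = 0.158). The small subunit partner Rack1 stood at -0.28 and the elongation factor Eef1a1 at -0.13. Without CUR replicate 0, 4 were higher and 4 lower, 18.2% in each direction, near the 18.1% and 20.6% of all genes.

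Among 22 regulators around mTORC1, only Ddit4, an inhibitor of mTORC1 that stress induces, passed, by 1.36 (adjusted p = 0.00117). It is 4.55% of the list, where 14.6% of all genes were higher and 16.9% lower. As TPM 5 of the 22 were higher (22.7%, against 24.4% of all genes). Of 10 genes of p53 and its targets, 5 were higher (50%, against 14.6% of all genes) and 0 lower, namely Trp53 by 0.89, Phlda3 by 1.71, Bax by 0.91, Mdm2 by 0.43 and Eda2r by 1.00. Of 11 genes of ribosome quality control, 1 was higher (9.09%, against 14.6% of all genes), namely Nufip1, by 0.46. As TPM or without CUR replicate 0 it was 4 (36.4%, against 24.4% and 18.1% of all genes).

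Ribosomal proteins of the mitochondrion, which are encoded by other genes, had a median of -0.21 in all AOM/DSS tissue (0.06 as TPM), and 11 of 78 were lower (14.1%, below the 16.9% of all genes) and 0 higher. As TPM 4 were lower (5.13%, against 10.4% of all genes) and 4 higher (5.13%, against 24.4%), and 32 were lower without CUR replicate 0 (41%, against 20.6%). Of 80 subunits of oxidative phosphorylation, 71 were lower (88.8%), with a median of -0.85, and 60 as TPM (75%, against 10.4%). In the treated groups against Model, none of the genes of these lists passed the threshold. Ribosome biogenesis had medians of -0.01 (ASA), -0.06 (CUR) and 0.22 (ASA+CUR). In that order they were -0.20, -0.04 and -0.20 for the other TOP mRNAs and ribosome partners. They were -0.15, 0.13 and -0.22 for mitochondrial ribosomal proteins, and -0.18, 0.26 and -0.32 for oxidative phosphorylation. In ASA and ASA+CUR the polymerases stood at 0.01 and 0.10, and mTORC1 regulators at 0.03 and 0.15. The Myc network stood at 0.01 and 0.10, p53 targets at 0.02 and -0.05, and quality control at 0.03 and 0.07.

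**Figure D5:**
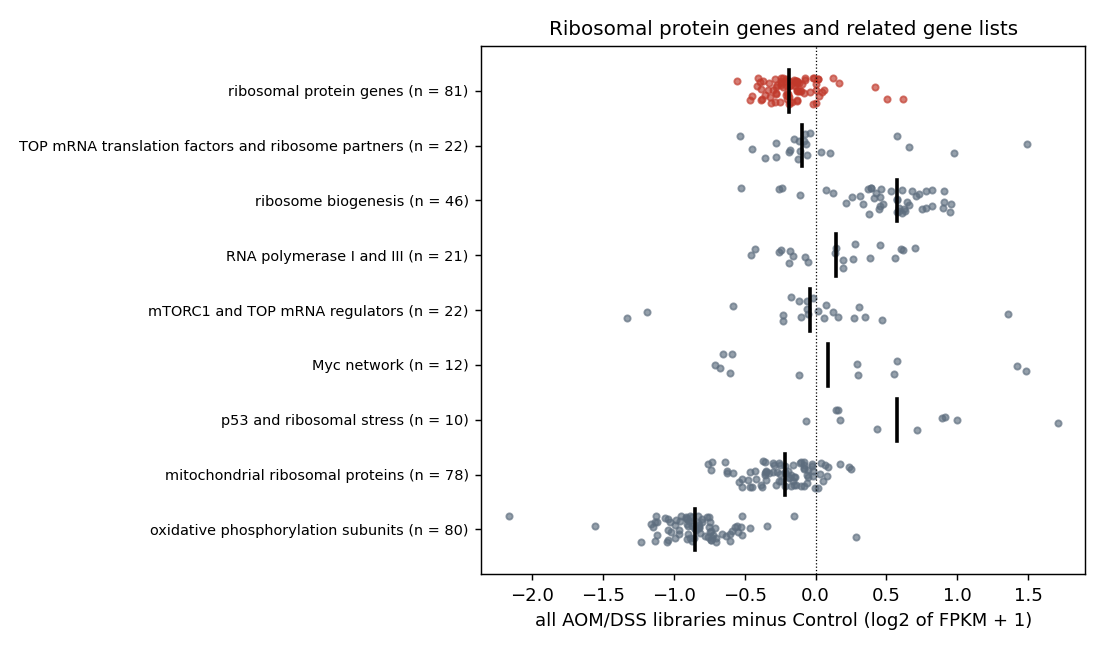
Difference of all AOM/DSS libraries minus Control (log2 of FPKM + 1) for each gene of the ribosomal protein set (red) and of related lists (grey), with a black bar at the median. The medians are -0.18 for the 81 genes as deposited (0.09 as TPM), 0.57 for ribosome biogenesis and -0.85 for oxidative phosphorylation.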

How the data were processed

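Among the tools in the submitters' processing notes are TopHat2 2.0.9, the aligner Bowtie2 2.1.0.0, Cuffdiff without a version, and bcl2fastq 2.17.1.14. The builds listed there are mm10 and GRCm38. The authors deposited FPKM values per RefSeq transcript for 10 libraries (30073 transcripts). Such FPKM are model estimates with depth removed, so no count test was used. Transcripts were named from a RefSeq gene table (29443) and GENCODE (179), and 451 stayed unnamed. Values were summed per gene to 23488 genes.

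The test covered 14061 genes that reached 1 FPKM in 2 or more libraries. The fit used limma (version 3.58.1, under R 4.3.3) on log2(FPKM + 1), with a trend on the mean level and all 10 libraries in 1 fit (5 residual and 2.96 prior degrees of freedom), two-sided, Benjamini-Hochberg adjusted within each of 7 comparisons at 0.05. Such log2 differences understate the change of low genes. The precision is limited by 2 libraries a group.

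Coding lengths came from GENCODE for 84 of the 85 members and 13438 of the 14061 tested genes. The members and the gene lists were chosen with earlier results of these data known. Members named are the 8 highest and 8 lowest differences past the threshold against Control (none passed), the 3 with the smallest p in each other comparison, the 5 highest and 5 lowest levels, paralogs ending in l or l and a number with their partners, a set of special members (Rplp0, Rplp1, Rplp2, Rpsa, Rps27a, Rps6 and Rps24 with its transcripts), and the 5 furthest above and below the other members. Of each other list, up to 4 genes past the threshold with the smallest p are named. Rpl4, Rpl11, Rpl38, Rps15a, the copies Rps27rt and Rpl34-ps1, the promoters shown, Fau, Rack1, Eef1a1 and the remaining list genes named were chosen after their values were seen. Some genes are not reported here. Alternatives changed the pseudocount, filter, scaling, transcript choice, trend, libraries and replicate block. Python 3.11.15, pandas 2.3.3 and numpy 2.4.6 were used.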

Additional observations from a re-analysis of the deposited data

How the results depend on the processing

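With 2 libraries a group, a count of 0 among the 81 genes says little of small changes. Model against Control gave 1 gene higher (12.7% of all genes were) when the sum of all other genes was made equal in every library, and the count was 0 under every other alternative run. All AOM/DSS against Control gave 5 higher as TPM (24.4% of all genes), 5 higher with the sum of the other genes made equal (26.3%), 1 lower with median-of-ratios size factors (17.5%) and 3 lower without limma's trend (16.7%). With the coding length trend removed, chosen after seeing the data, it gave 3 lower (17.8%). Leaving out 1 library at a time gave 0 to 28 lower and 0 to 1 higher in all AOM/DSS against Control, and 0 to 65 lower in ASA+CUR against CUR. The 28 came without CUR replicate 0 (20.6% of all genes lower), the 1 higher without ASA+CUR replicate 0 (11.7%) and the 65 without CUR replicate 1 (7.77%). Over all genes, all AOM/DSS against Control gave 3623 higher and 1540 lower as TPM, and 547 to 617 higher and 674 to 691 lower without either Control library. Model against Control gave 1626 and 773 as TPM, and 157 to 191 and 155 to 165 without either Control library, and 455 to 877 and 624 to 767 without either Model library. With the sum of the other genes made equal these comparisons gave 3705 and 1444, and 1787 and 714, and with the median of the 81 made equal 1505 and 808 genes were lower. The cause was not tested. The counts of ASA, CUR and ASA+CUR against Model and of ASA+CUR against ASA stayed at 0 under every alternative run.

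Replicate numbers did not pair the libraries in most pairs of groups. Over 10 pairs of groups, deviations of same-numbered libraries correlated between -0.21 and 0.33 over all tested genes, above 0.1 in 3. Over the ribosomal protein genes alone the correlations ran from -0.95 to 0.34, also above 0.1 in 3. These genes include Rps27, which differed (log2, replicate 0 minus 1) by -4.37 in Control and by 3.64 in ASA. The SD of these differences over the 81 genes was 0.52 and 0.42. That 1 gene can thus dominate such a correlation, and the range is not given without it. With the replicate number as a block, 0 of the 81 genes passed in any of the 7 comparisons, and over all genes 870 were higher and 1192 lower in Model against Control, where 962 and 1314 passed without it. In all AOM/DSS against Control, 1959 and 2303 passed with the block and 2057 and 2378 without it.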
